A study of Mus musculus with 4 samples.

Results

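The 10 genes described here encode the CDK inhibitors and the retinoblastoma family of the mouse, namely Cdkn1a, Cdkn1b, Cdkn1c, Cdkn2a, Cdkn2b, Cdkn2c, Cdkn2d, Rb1, Rbl1 and Rbl2. They were taken by symbol, through the accession that each array probe carries, from 17012 genes that could be named on the array. All 10 had at least 1 probe, 13 probes on 49 spots together, and 9 of them had a probe bright enough to be tested. RNA came from gastric tumours of 30-week-old mice of the K19-Wnt1/C2mE line, where a keratin 19 promoter drives Wnt1 together with cyclooxygenase-2 and microsomal prostaglandin E synthase in the stomach epithelium. The tumours were digested to single cells, cells with lineage markers were removed, and the remainder was sorted into CD44+ and CD44- cells. The antibodies behind the lineage gate are not named in the labels. Each group has 2 one-colour arrays, written CD44+ 1, CD44+ 2, CD44- 1 and CD44- 2. Both groups carry the transgenes, and normal stomach was not analysed here, so every comparison is between 2 fractions of tumours of 1 genotype. The comparison asked which transcripts differ between tumour cells with and without CD44, a hyaluronan receptor used to enrich tumour-initiating cells. Nothing in the labels says whether the replicates came from separate mice or pools, so errors and p-values measure only how far these samples lie apart, which may be technical.

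CDK inhibitors are brakes on the cell cycle. The Cip/Kip proteins, encoded by Cdkn1a (p21), Cdkn1b (p27) and Cdkn1c (p57), bind complexes of cyclins with CDKs, while the INK4 proteins, encoded by Cdkn2a, Cdkn2b, Cdkn2c and Cdkn2d, bind Cdk4 and Cdk6 and keep D cyclins from activating them. Active CDKs phosphorylate the retinoblastoma proteins Rb1, Rbl1 (p107) and Rbl2 (p130), which otherwise hold E2F transcription factors and repress the genes of DNA replication and mitosis. Rbl1 is itself a well-known E2F target, and Rbl2 is the family member typical of resting cells. In the gastrointestinal epithelium several of these inhibitors are linked to exit from the cycle and to differentiation.

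In these cells 0 of the 9 tested members passed limma's test over all genes (Benjamini-Hochberg adjusted p under 0.05), where 84 of 21050 genes, 0.399%, passed (0.0238% higher and 0.375% lower). Of the 9, 1 had an unadjusted p under 0.05, as had 10.8% of all genes. That gene was Rbl1, whose signal was 2.84-fold higher in CD44+ cells, which is 1.51 ± 0.49 on the log2 scale (SE, 2 arrays per group). Cdkn1a had the largest difference in the other direction, 2.07-fold lower in CD44+ cells at -1.05 ± 0.49. The other 7 differed by -0.54 to 0.49, and Cdkn2a was not measured above background. Of the 9, 6 lay above 0 and 3 below, with a median of 0.14 against 0.16 over all genes tested. The arrays of the groups did not overlap for 4 of the 9 (2 higher and 2 lower), against 39.6% of all genes (22.4% higher and 17.2% lower). Of the lower ones, Cdkn1b was bright enough to be tested through its CD44- arrays only. The members' shares are near those of all genes, and with 2 arrays per group the precision was low. The smallest difference among the 84 genes that passed was 2.94 on the log2 scale, above that of any member.

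The promoters of Rbl1 and Rbl2 are shown because Rbl1 had the largest group difference of the 9 genes and its relative Rbl2 the smallest, and because Rbl1 is a textbook E2F target. Both are RefSeq sequences of build GRCm38.p6, from 250 bases before to 50 bases after the start, 5′ to 3′ on the gene's strand. Rbl1 is at chr2:157204485-157204784 (minus strand) and Rbl2 at chr8:91069807-91070106 (plus strand). Capitals mark any match on either strand to an E2F octamer, that is TTTCCCGC, TTTGGCGC, TTTCGCGC or TTTGCCGC.
Rbl1: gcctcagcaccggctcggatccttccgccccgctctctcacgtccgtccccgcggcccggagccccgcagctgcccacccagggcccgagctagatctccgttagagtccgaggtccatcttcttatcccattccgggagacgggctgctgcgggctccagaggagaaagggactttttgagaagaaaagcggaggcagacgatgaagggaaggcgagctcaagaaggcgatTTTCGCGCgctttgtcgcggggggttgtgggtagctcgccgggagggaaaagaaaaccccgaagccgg
Rbl2: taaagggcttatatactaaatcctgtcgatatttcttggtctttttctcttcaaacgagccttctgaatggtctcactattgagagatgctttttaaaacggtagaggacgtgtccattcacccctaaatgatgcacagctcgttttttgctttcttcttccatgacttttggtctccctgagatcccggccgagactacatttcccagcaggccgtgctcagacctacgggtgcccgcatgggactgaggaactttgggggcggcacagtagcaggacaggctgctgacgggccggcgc
Rbl1 holds 1 match, TTTCGCGC, whose first base lies 18 bases before the start, and the Rbl2 window holds 0. Of 32851 mouse promoter windows of this length 2.27% held a match. The table had 11 windows for 8 of the 10 members, and 2 of them held one, Rbl1 and the upstream start of Cdkn2a. The GC box GGGCGG, read on both strands, was in 9 of the 11 windows and in 35.7% of all. The octamers were chosen after the expression values were seen, and a match in letters is a description, not a binding site.

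Values below are log2 of the background-subtracted signal relative to the array's 75th percentile, so 0 is the brightness below which 75% of the probes of that array lie. They compare arrays for 1 probe and not 1 gene with another, since probes differ in sensitivity. The 75th percentile of signal was 244 on CD44+ 1, which was the dimmest array, and 406 to 527 on the others. Of gene spots 53.1% were well above background on CD44+ 1 and 65.6% to 69.6% on the others, and 0 were saturated. All 4 arrays lay on 1 slide and were scanned once, with CD44+ cells at positions 1 and 2 and CD44- cells at positions 3 and 4, so position and group cannot be told apart. The sort marker Cd44 read 6.31 and 6.54 on CD44+ 1 and 2 and 4.26 and 5.11 on CD44- 1 and 2. The 6 epithelial markers had 5 above 0 and 1 below, with a median difference of 0.49 on the log2 scale that was -0.08 without CD44- 2. Among them Epcam read 4.69 and 4.66 against 3.34 and 2.70 and was well above background on all 4 arrays. The tight junction gene Cldn4 differed by -2.19 ± 0.69 (limma adjusted p = 0.252), but was well above background on only 1 CD44+ array. Fibroblast genes stood apart between the CD44- arrays, with a summed signal over 9 probes of 72.4 and 513 times the 75th percentile on CD44- 1 and 2, against 8.26 and 45.8 on CD44+ 1 and 2. The 8 endothelial genes summed to 4.58 and 72.6 on the CD44- arrays against 1.16 and 1.70. Of the 6 that were tested, 5 lay below 0 and 1 above, Tek at 0.30 ± 0.61. In bulk samples fewer cells of a type and less RNA per cell cannot be told apart.

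**Figure D1:**
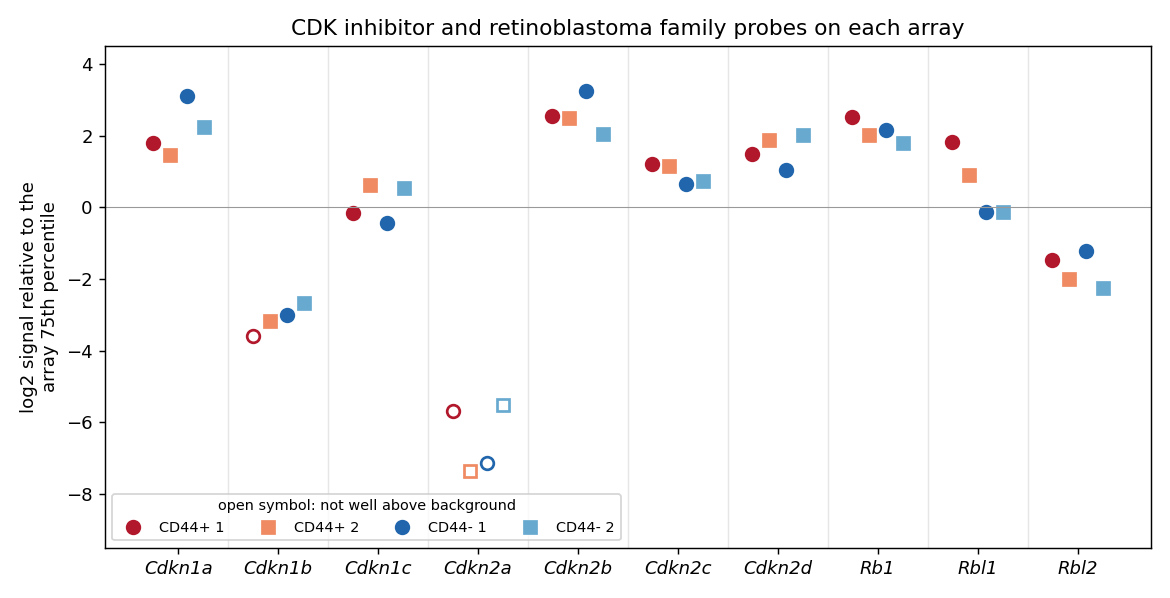
Signal of each CDK inhibitor and retinoblastoma family gene on the 4 arrays, as log2 relative to the array's 75th percentile, for the brightest probe of each gene. Circles are replicate 1 and squares replicate 2, reds are CD44+ and blues CD44-, and open symbols are not well above background. Rbl1 has both CD44+ points above both CD44- points, Cdkn1a the reverse, and Cdkn2a has 4 open points.

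Among the Cip/Kip genes, Cdkn1a, whose protein p21 is induced by p53 and by differentiation signals, read 1.79 and 1.45 on CD44+ 1 and 2 and 3.11 and 2.23 on CD44- 1 and 2. Both CD44- arrays were above both CD44+ arrays, and CD44- 1 was the highest. The difference of -1.05 ± 0.49 has a 95% interval of -2.19 to 0.09, and its adjusted p by limma was 0.530. This probe was printed 10 times on each array. On CD44- 1 the 10 spots had processed signals of 3453 to 3562, and on CD44+ 1 of 780 to 862. The SD of log2 signal over the kept spots was 0.02 to 0.04 per array, while the 2 CD44- arrays were 0.88 apart and the 2 CD44+ arrays 0.34 apart. The spread of Cdkn1a was thus larger between arrays than between spots of 1 array. Squamous marker genes, of which 9 of 9 had a probe, summed to 24.0 and 10 times the 75th percentile on CD44+ 1 and 2 and to 219 and 365 on CD44- 1 and 2. The sum does not stand for every marker, since 3 of the 9 lay above 0, among them the cornified envelope gene Ivl at 1.60 ± 0.45 (limma adjusted p = 0.199). Endocrine markers, 10 of 10 with a probe, summed to 3.96 and 5.37 against 366 and 781. All the markers of both lists were well above background on at least 1 array. The squamous and endocrine sums were higher on CD44- 2 than on CD44- 1. Markers of differentiated gastric cells had 5 of 7 tested below 0 and 2 above, with a median of -1.11 (0.13 without CD44- 2). Among them Muc5ac read 0.26 and -1.02 on CD44+ 1 and 2 and 5.78 and 2.77 on CD44- 1 and 2. Atp4b read -2.65 and -3.15 against 0.48 and 4.37, so their order on the CD44- arrays differed. The part of these 3 lists in the Cdkn1a difference was not tested.

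Cdkn1b, whose protein p27 restrains Cdk2 in resting cells, was dim. It read -3.61 and -3.16 on CD44+ 1 and 2 and -3.02 and -2.66 on CD44- 1 and 2, and on CD44+ 1 only 1 of its 10 spots was well above background. Cdkn1b was tested only because both CD44- arrays, where it read higher, were well above background. Direction, overlap and p are therefore tied to that filter. The groups did not overlap, and the difference was -0.54 ± 0.46 (95% interval -1.60 to 0.51, limma adjusted p = 0.784). With another background correction, normexp with an offset of 50 added to the signals, it was -0.01. That offset is of the size of this probe's own spot signals, given next. The parts of the offset and of the correction in this value were not tested separately. Processed signals of the kept spots ranged from 15.8 to 24.9 on CD44+ 1, 43.9 to 63.5 on CD44+ 2, 42.0 to 57.6 on CD44- 1 and 77.0 to 89.0 on CD44- 2. The processed signal of CD44+ 2 thus overlapped that of CD44- 1 before scaling. A second Cdkn1b probe was well above background on 0 of 4 arrays and was not tested.

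Cdkn1c, the imprinted inhibitor p57, had larger gaps between replicates than between groups. It read -0.16 and 0.63 on CD44+ 1 and 2 and -0.44 and 0.54 on CD44- 1 and 2, so the second array was the higher in both groups. The gap between replicates, 0.79 and 0.98, exceeded the group difference of 0.18 ± 0.54 (95% interval -1.05 to 1.42, limma adjusted p = 0.927). The direction of the difference turned when CD44+ 2 or CD44- 1 was left out.

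**Figure D2:**
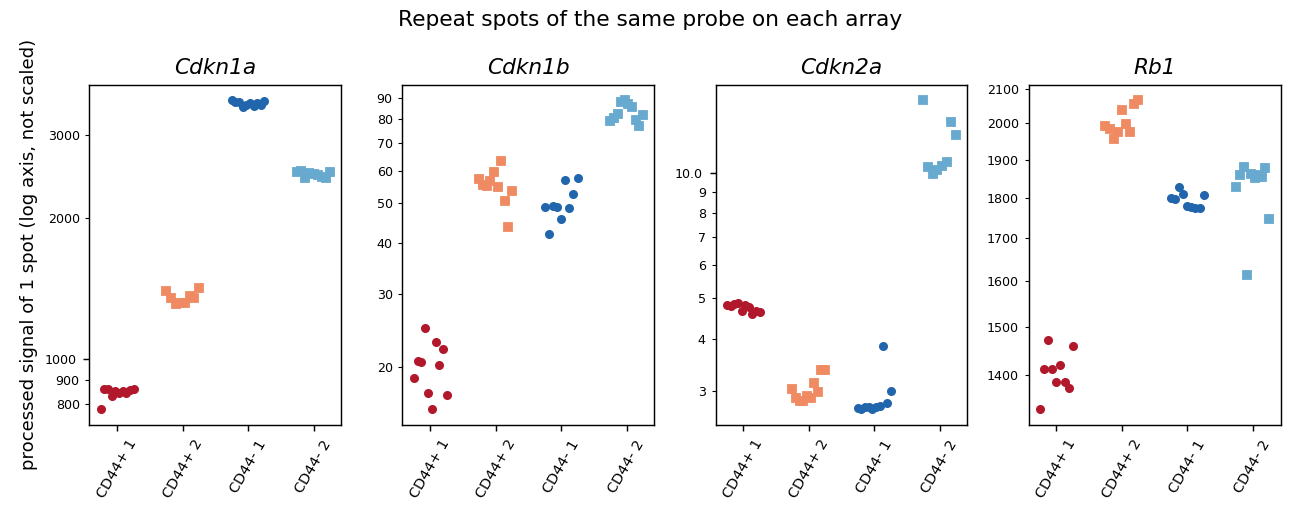
Processed signal of each kept spot, on a log axis and not scaled between arrays, for the 4 genes whose probe was printed 10 times per array. Spots of 1 array lie close together compared with the steps between arrays for Cdkn1a and Rb1, while Cdkn2a stays at or below 14.9 on every array.

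Among the INK4 genes, Cdkn2a was not well above background on any array. The locus encodes p16 (Ink4a) and p19 (Arf) from separate first exons, and which of these transcripts the probe covers was not analysed here. Its mean processed signals were 4.75 and 3.02 on CD44+ 1 and 2 and 2.88 and 11.5 on CD44- 1 and 2. The lowest signals called well above background on these arrays were 22.9, 14.1, 13.4 and 14.1. CD44- 2 had the highest reading, where 1 of 10 spots was called well above background, so only an upper bound on Cdkn2a can be had and no fold is given. Cdkn2b, which lies next to Cdkn2a on chromosome 4 with 1 predicted gene between them and encodes the TGF-beta responsive inhibitor p15, was by contrast well above background on all 4 arrays. It read 2.53 and 2.48 on CD44+ 1 and 2 and 3.24 and 2.04 on CD44- 1 and 2. The CD44+ arrays lay between the CD44- arrays, and the difference was -0.13 ± 0.53 (95% interval -1.35 to 1.09, limma adjusted p = 0.945). Its direction turned without CD44- 1, to 0.47.

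Cdkn2c, which encodes p18, had the tightest replicates among the 9. It read 1.22 and 1.15 on CD44+ 1 and 2 and 0.65 and 0.74 on CD44- 1 and 2. The groups did not overlap, and the signal was 1.40-fold higher in CD44+ cells (log2 0.49 ± 0.44, 95% interval -0.52 to 1.49, limma adjusted p = 0.791). The replicates of Cdkn2c were 0.07 and 0.09 apart, yet its standard error was close to that of the other members, because limma moderates each gene's variance towards that of all genes. With 1 array left out its difference was 0.44 to 0.53. Cdkn2d, which encodes the INK4 protein p19 that is distinct from Arf, read 1.49 and 1.86 on CD44+ 1 and 2 and 1.05 and 2.03 on CD44- 1 and 2. The CD44+ arrays lay between the CD44- arrays, with a difference of 0.14 ± 0.51 (95% interval -1.03 to 1.30, limma adjusted p = 0.942). Like Cdkn1c, it was higher on the second array of each group.

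**Figure D3:**
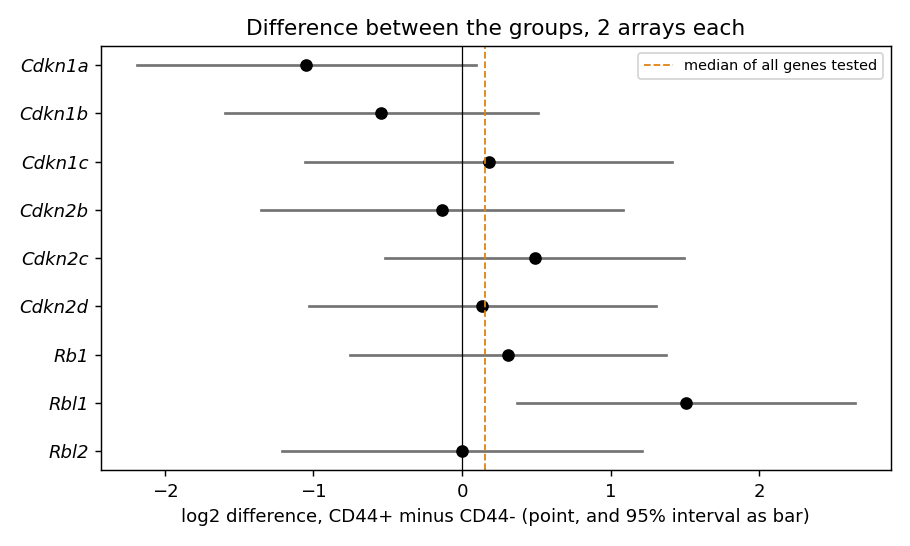
Log2 difference, CD44+ minus CD44-, for the 9 tested genes, with the 95% interval of limma's moderated fit (2 arrays per group) as a bar. The dashed line is the median of all genes tested, 0.16. The interval of Rbl1 alone lies off 0, from 0.37 to 2.64, before any adjustment for the number of genes.

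Among the retinoblastoma family, Rb1, the founding tumour suppressor of the pathway, read 2.53 and 2.03 on CD44+ 1 and 2 and 2.14 and 1.79 on CD44- 1 and 2. The groups overlapped, since CD44- 1 was above CD44+ 2, and the difference was 0.31 ± 0.46 (95% interval -0.75 to 1.37, limma adjusted p = 0.853). It was 0.06 without CD44+ 1 and 0.56 without CD44+ 2. Its 10 spots per array had an SD of 0.01 to 0.07 on the log2 scale, less than the gaps of 0.50 and 0.35 between replicates. A second Rb1 probe was well above background on 0 of 4 arrays.

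Rbl1 read 1.83 and 0.90 on CD44+ 1 and 2 and -0.14 and -0.15 on CD44- 1 and 2. The CD44- arrays were nearly equal, while the CD44+ arrays were 0.93 apart and both above them. The difference of 1.51 ± 0.49 had a limma adjusted p of 0.279 (unadjusted p = 0.0157) and a 95% interval of 0.37 to 2.64. It was 1.04 without CD44+ 1 and 1.97 without CD44+ 2, so the dimmest array of the set carried the higher reading. Of all genes tested 91.5% had a smaller difference in size. The summed signal of mitosis genes, 8 of 10 with a probe, was 66.2 and 63.0 times the 75th percentile on CD44+ 1 and 2 and 21.8 and 18.1 on CD44- 1 and 2, and its part in the Rbl1 difference was not tested. Mast cell markers, 7 of 7 with a probe and 6 tested, lay above 0 for 6 of 6 with a median of 1.71 (1.12 without CD44- 2). The groups did not overlap for 4 of the 6, the proteases Mcpt1, Mcpt2, Mcpt4 and Cma1. They overlapped for the receptor genes Kit and Fcer1a, which differed by 0.06 and 0.13. Sums over the mast cell list were 10.5 and 14.9 on CD44+ 1 and 2 and 3.39 and 3.12 on CD44- 1 and 2. The mast cell protease Mcpt1 passed the test at 2.94 ± 0.45 (limma adjusted p = 0.0475). Leukocyte markers had 4 of 6 tested above 0, with sums of 1.68 and 1.18 against 1.09 and 0.99. Cd53 passed at 3.81 on the log2 scale (limma adjusted p = 0.0239), but was well above background on 0 CD44- arrays. Its fold is thus given as at least 9.06. The 2 leukocyte genes below 0 were Ptprc at -0.66 ± 0.47 and Laptm5 at -1.48 ± 0.57, both without overlap of the groups. The part of the mast cell and leukocyte genes in the Rbl1 difference was not tested either.

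Rbl2 read -1.47 and -2.01 on CD44+ 1 and 2 and -1.21 and -2.27 on CD44- 1 and 2 with its brighter probe. The CD44- arrays enclosed the CD44+ arrays, and the difference was 0.00 ± 0.53 (95% interval -1.21 to 1.21, limma adjusted p = 0.999). Its second probe, well above background on 3 of 4 arrays, differed by -0.01 ± 0.48, with readings of -4.15 and -3.69 against -4.25 and -3.58. The probes gave like group differences but ordered the replicates in opposite ways, the first array being the brighter with one and the dimmer with the other. The difference between the Rbl1 and Rbl2 responses was not itself tested.

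The partners and targets of these proteins were read from lists, of which the counts are a description. Over all genes tested, 60.6% lay above 0, 10.8% had an unadjusted p under 0.05, and 22.4% had both CD44+ arrays above both CD44- arrays. In the pathway lists below, 0 genes passed limma's adjusted test. At an unadjusted p under 0.05 were 8 of 8 mitosis genes, 4 of 10 imprinted genes, 2 of 6 p27 turnover genes, 2 of 17 genes of the p53 axis, 1 of 5 MuvB and MYB genes and 1 of 4 corepressors. The list with Polycomb genes had 0 of 8 and that of Smad, Foxo, Myc and other regulators 0 of 10. E2F and DP transcription factors had higher signal in CD44+ cells for 10 of 10 tested, with a median of 0.67 and both CD44+ arrays above both CD44- arrays for 8. Retinoblastoma proteins hold E2f1 to E2f5 with their DP partners, while E2f6, E2f7 and E2f8 repress without binding retinoblastoma proteins. The atypical repressors E2f8 and E2f7 differed by 2.13 ± 0.46 and 1.87 ± 0.44 (limma adjusted p = 0.120 and 0.142). The activator E2f1 read -0.71 and -0.83 against -1.95 and -2.02, a difference of 1.21 ± 0.44 (limma adjusted p = 0.330). At an unadjusted p under 0.05 were 3 of the 10.

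Known E2F target genes, most of them of DNA replication with the cell cycle genes Ccna2 and Cdk1, lay above 0 for 17 of 17, without overlap of the groups for all 17, with a median of 1.31, and 13 had an unadjusted p under 0.05. The range was 0.87 to 2.08, with Cdk1 the highest, and the ribonucleotide reductase subunit Rrm2 differed by 2.01 ± 0.47. The Rbl1 difference of 1.51 lies inside that range, while its 95% interval of 0.37 to 2.64 extends beyond both ends. The part of E2F in the Rbl1 difference was not tested. The mitosis list had 8 of 8 tested above 0, with a median of 1.98. The MuvB core is part of the DREAM complex with Rbl1 or Rbl2 in resting cells, and binds MYB proteins in cycling ones. The list of MuvB core and MYB genes had 5 of 5 tested above 0 with a median of 0.57. The largest was Mybl2, itself an E2F target, at 1.38 ± 0.45 (limma adjusted p = 0.284). Corepressors that bind retinoblastoma proteins had 3 of 4 above 0, led by the histone methyltransferase Suv39h1 at 1.10 ± 0.45.

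**Figure D4:**
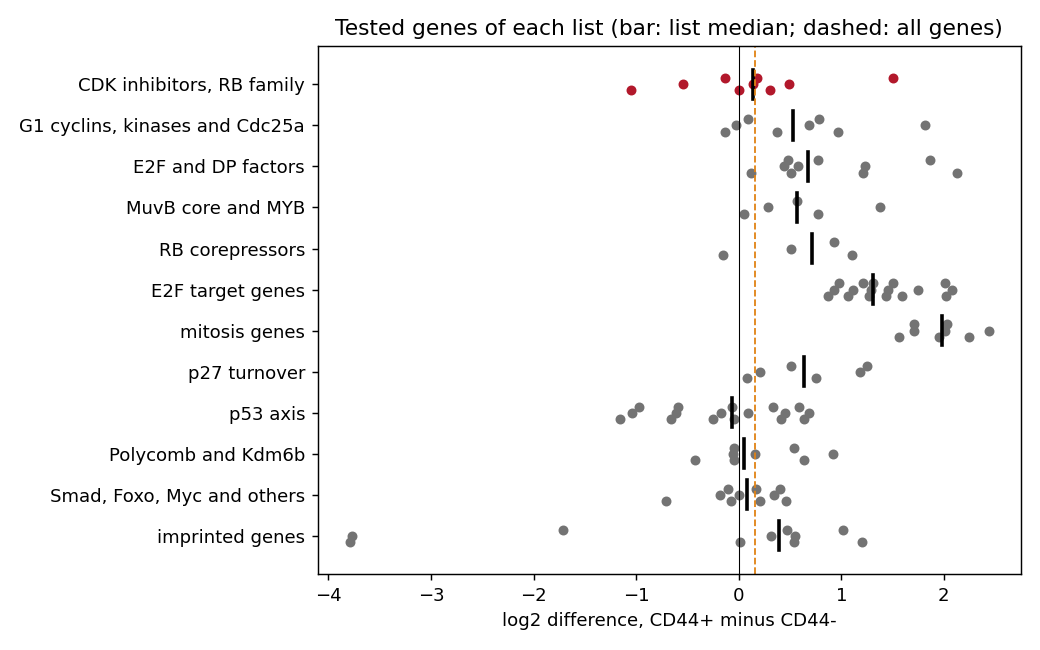
Log2 difference, CD44+ minus CD44-, of each tested gene in 12 lists, with the list median as a black bar and the median of all genes as a dashed line. The CDK inhibitor and retinoblastoma family points spread from -1.05 to 1.51 around a median of 0.14, while the E2F target and mitosis points start at 0.87 and 1.56.

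The G1 cyclins and kinases on which the inhibitors act, listed with the Cdk2-activating phosphatase Cdc25a, had 6 of 8 tested above 0. Their median was 0.53, which was 0.06 without CD44- 2, and 1 had an unadjusted p under 0.05. That gene was Ccne1, the cyclin of Cdk2 and an E2F target, which read 2.09 and 2.90 against 0.75 and 0.62 (1.81 ± 0.48, limma adjusted p = 0.181). Cdk4, the kinase that INK4 proteins bind, differed by 0.69 ± 0.44 (limma adjusted p = 0.723). Genes of p27 turnover, 5 of the SCF ubiquitin ligase and Rnf123 of the KPC ligase, had 6 of 6 tested above 0. Their median was 0.63, which was 0.26 without CD44- 2 and 1.01 without CD44- 1, and Rnf123 differed by 0.08 ± 0.45. The SCF substrate receptor Skp2 read -2.83 and -3.22 against -4.45 and -4.11, a difference of 1.25 ± 0.45 (limma adjusted p = 0.334), and the cofactor Cks1b differed by 1.18 ± 0.46. Cdkn1b RNA, by comparison, had the difference of -0.54 given above, and protein was not measured.

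Genes of the p53 axis, which includes Cdkn1a by function but was counted without it, had 7 of 17 tested above 0 and 10 below, with a median of -0.06 that was 0.04 with median scaling and 0.13 without CD44- 2. The lowest were the antiproliferative gene Btg2 at -1.16 ± 0.49 and the death receptor Fas at -1.04 ± 0.45 (limma adjusted p = 0.448 and 0.464), close to the value of Cdkn1a. Mdm2, the p53 ubiquitin ligase and a p53 target as well, differed by 0.09 ± 0.44, and Trp53 itself by 0.68 ± 0.56. Members of the list thus did not share a direction. A list of 7 Polycomb genes, whose proteins silence the Cdkn2a locus, and the opposing demethylase Kdm6b had 4 of 8 above 0. Its median of 0.05 was -0.02 without CD44+ 2 or CD44- 1. The methyltransferase Ezh2 differed by 0.92 ± 0.45 (limma adjusted p = 0.566) and Kdm6b by -0.43 ± 0.47. Smad, Foxo, Myc and other factors that control several of these inhibitors had 6 of 10 above 0, near the share of all genes, with a median of 0.08 that was -0.12 without CD44+ 2. Myc differed by 0.00 ± 0.45.

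Imprinted growth genes, with which Cdkn1c is usually grouped, had 7 of 10 tested above 0, near the share of all genes. The median of 0.39 was 0.02 without CD44+ 2, 0.14 without CD44- 2, 0.17 without CD44+ 1 and 0.67 without CD44- 1, and the spread was wide. Peg3 differed by -3.79 ± 0.71 and Grb10 by -3.77 ± 0.93 (limma adjusted p = 0.0859 and 0.160), and Grb10 passed the background limit on only 1 CD44+ array. Both read highest on CD44- 2, the array with the highest fibroblast and endothelial sums, whose part in these values was not tested. Cdkn1c, at 0.54 on that array and 0.63 on CD44+ 2, did not follow these 2 genes. Its difference of 0.18 lay above 0, as did those of 7 of the 10. The largest of the 7 were Ascl2 at 1.20 ± 0.46 and Igf2 at 1.02 ± 0.47.

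Likeness between genes was measured over the 4 arrays as the root mean square distance between values centred per gene, among 162 tested genes of the lists. The genes nearest to Rbl1 were Mybl2 at 0.16, the replication helicase subunit Mcm3 at 0.17 and the transcription factor Ascl2 at 0.18. Nearest to Cdkn1a were Klf4, a transcription factor of differentiating epithelium, at 0.31, the gastrin gene Gast at 0.32 and the p53 target Perp at 0.38. Cdkn1c and Cdkn2d had the same 3 nearest genes, Foxo1, Foxo3 and Bmi1, at 0.09 to 0.18. With only 4 arrays many genes have near patterns, so these distances are a description.

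**Figure D5:**
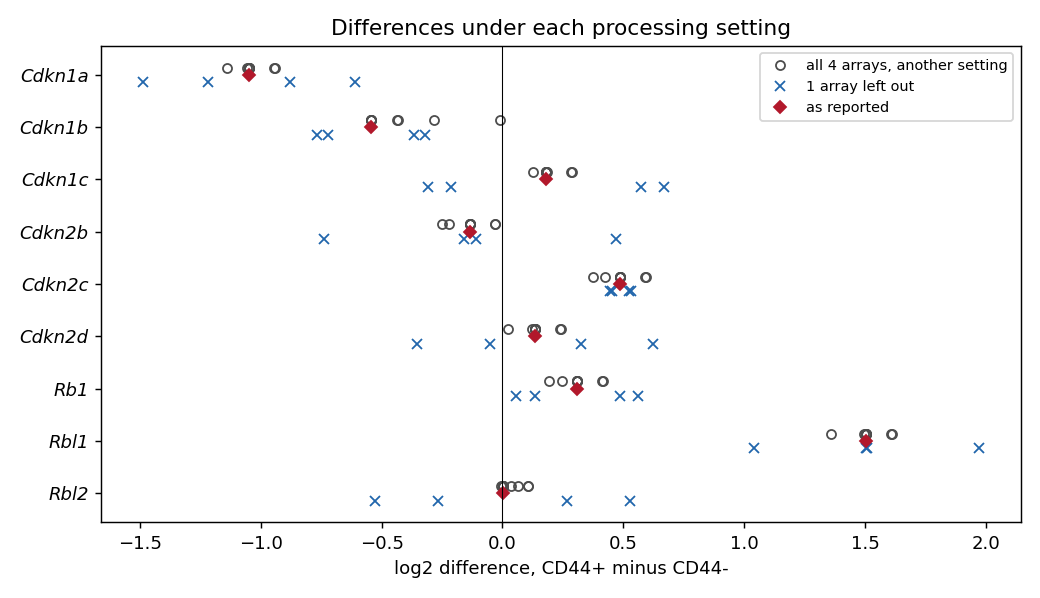
Log2 difference, CD44+ minus CD44-, for the 9 tested genes as reported (diamonds), under other settings with all 4 arrays (open circles) and with 1 array left out (crosses). Rbl1 stays between 1.04 and 1.97 and Cdkn1a between -1.49 and -0.61, while Cdkn1c, Cdkn2b, Cdkn2d and Rbl2 cross 0 when an array is left out.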

How the data were processed

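RNA from 4 samples was amplified, labelled with Cy3 and hybridised to one-colour arrays, per the labels' protocols. The authors deposited scanner tables with background-subtracted spot intensity, not scaled between arrays, per the file headers, which name Agilent Feature Extraction 10.1.1.1 (the submitters' processing notes name 9.5). They also deposited a value table, which on comparison with the scanner values held a linear ratio of each array to the probe's median after 1 factor per array, so that direction and scale are known and the choice of factor is not. Its column medians are 0.853 and 0.989 for CD44+ 1 and 2 and 0.928 and 0.739 for CD44- 1 and 2. The array design refers to another genome build than the gene table, so the only coordinates given are those of RefSeq promoter windows, in the gene table's build.

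Spots flagged as outliers (109 to 133 per array) and control spots were left out, spots of 1 probe were averaged, and log2 values were taken relative to each array's 75th percentile. RefSeq accessions (GRCm38.p6) named 24367 of 41174 probes. A probe was tested if, in either group, most of its kept spots were well above background on each array, and the brightest such probe stood for a gene. Groups were compared with limma 3.58.1 in R 4.3.3 without covariates, tested on simulated data, with Benjamini-Hochberg adjustment over 21050 genes. Variance was moderated with 2 residual and 6.02 prior degrees of freedom. An exact permutation test of 2 against 2 arrays cannot give a p below 0.333 and was not used. The members and lists were chosen with earlier results of these data known. Named genes were all members, up to 4 genes per list with the smallest adjusted p, some fixed regulators, and the 3 list genes nearest each member. Some genes that the rule names are left out of the text. The alternatives covered scaling, background correction, the filter on dim probes, the choice of probe, the variance model, the replicate number as a block, and each array left out.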

Additional observations from a re-analysis of the deposited data

How the results depend on the processing

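The number of genes passing over all genes moved with the processing, from 84 (5 higher and 79 lower in CD44+ cells) to 749 with median scaling (121 and 628), 748 with the authors' value table (121 and 627), 540 with normexp (98 and 442), 133 with an intensity trend (13 and 120), 24 with no filter on dim probes (0 and 24) and 6 with quantile normalization (0 and 6). With only probes well above background on all 4 arrays, 18 passed as higher. With 1 array left out, 2 to 1589 passed (0 to 191 higher and 2 to 1398 lower). Median scaling moved the median of all genes from 0.16 to 0.26 and the members with it. Members passing were 0 in 13 of 14 alternatives. The exception was the replicate block, where 1829 genes (336 higher and 1493 lower) and 1 member passed. That member was Rbl1 at 1.51 ± 0.52 (limma adjusted p = 0.0420, against 0.141 or more in the other alternatives with all 4 arrays). In the block fit, as in the normexp fit, the prior degrees of freedom were infinite, so all genes of the fit shared 1 variance. The spread of Rbl1 itself therefore did not enter its p. Nothing in the labels says that equal replicate numbers pair the samples, and the deviations of same-numbered arrays correlated at 0.35 across genes. Cdkn1a, Cdkn1b, Cdkn2c, Rb1 and Rbl1 kept their direction in every alternative that could test them. With 1 array left out the log2 difference was -0.31 to 0.67 for Cdkn1c, -0.74 to 0.47 for Cdkn2b, -0.35 to 0.62 for Cdkn2d, and -0.53 to 0.53 for Rbl2, which was also -0.0040 with the mean of its probes. The cause of these changes was not tested. No slide block could be fitted, since all arrays shared 1 slide and scan.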
